A study of Mus musculus with 12 samples.

Results

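The genes described here are 8 products that neutrophils carry in their cytosol or granules: S100a8 and S100a9, whose proteins form calprotectin, and Camp, Ngp, Ltf, Lcn2, Mmp8 and Mmp9, whose proteins are stored in granules. They were chosen by name, with earlier results of these data known, and each was read from its probe set with the highest mean over the 12 arrays. They are 8 of 18193 genes on the array. Only 4 of the 8 (S100a8, S100a9, Camp and Ngp) reached the level needed for testing, a log2 value over 5 on 3 or more of the arrays, which 9120 genes did. The other 4, Ltf, Lcn2, Mmp8 and Mmp9, are described by their values.

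The series measured RNA of CD11b+ cells sorted from the hippocampus of female mice of the strains Balb/c and C57BL/6. The 4 groups were irradiated Balb/c, sham Balb/c, irradiated C57BL/6 and sham C57BL/6 mice, with 3 arrays each and RNA taken per animal. Irradiated mice had received a single X-ray dose of 10 Gy under anaesthesia over a field 1 cm wide centred on the forebrain, with eyes, nose and cerebellum shielded, at the age of 6.5 weeks. All mice were analysed at 10.5 weeks, 1 month later. Both strains came from a commercial breeder, and the labels name no transgene or deletion. RNA went through 2 rounds of linear amplification before hybridisation. The values are log2 intensities normalised with GCRMA. They ran from 2.23 to 16.2 with a median of 2.44, and 41.8% of them lay within 0.01 of 2.23, called the bottom of the scale here. A value at the bottom means that the probe set gave no signal above it, so a difference that involves such values has no settled size.

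Neutrophils fill their granules in sequence as they mature in the bone marrow. Azurophil granules with myeloperoxidase and elastase are made first, specific granules with lactoferrin and cathelicidin next, and gelatinase granules last. Calprotectin is a heterodimer that binds calcium, zinc and manganese. It makes up much of the neutrophil cytosol, is also made by monocytes, and signals through the receptors TLR4 and RAGE when released. Microglia are the resident macrophages of the brain. The integrin subunit CD11b lies on microglia, monocytes and neutrophils alike, so a CD11b gate does not separate these cells. Granule genes are under the control of transcription factors of the C/EBP family and of PU.1 during granulocyte maturation.

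The promoters of the 4 tested genes are shown because these genes had like patterns in pairs across the arrays. Each sequence is the 250 bases before the annotated start, 5′ to 3′ on the gene's own strand, from RefSeq on the build GRCm38.p6. Capitals mark matches to TTNNGNAA, a core motif of the C/EBP family, on either strand. The S100a8 promoter lies at chr3:90668821-90669070 on the plus strand, the S100a9 promoter at chr3:90695722-90695971 on the minus strand, the Camp promoter at chr9:109849457-109849706 on the minus strand and the Ngp promoter at chr9:110419558-110419807 on the plus strand.
S100a8: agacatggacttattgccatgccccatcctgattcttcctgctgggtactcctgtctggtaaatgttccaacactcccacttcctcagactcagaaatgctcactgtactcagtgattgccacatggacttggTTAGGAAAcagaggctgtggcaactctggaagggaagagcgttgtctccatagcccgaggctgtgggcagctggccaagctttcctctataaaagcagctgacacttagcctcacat
S100a9: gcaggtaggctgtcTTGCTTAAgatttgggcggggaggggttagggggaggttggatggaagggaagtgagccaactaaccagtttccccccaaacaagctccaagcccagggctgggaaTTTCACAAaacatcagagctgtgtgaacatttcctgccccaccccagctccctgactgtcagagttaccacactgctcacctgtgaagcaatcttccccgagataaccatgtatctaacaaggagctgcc
Camp: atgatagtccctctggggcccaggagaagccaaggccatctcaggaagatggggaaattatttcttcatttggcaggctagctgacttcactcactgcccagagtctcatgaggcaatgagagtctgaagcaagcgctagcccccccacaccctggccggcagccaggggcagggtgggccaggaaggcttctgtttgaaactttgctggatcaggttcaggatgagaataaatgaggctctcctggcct
Ngp: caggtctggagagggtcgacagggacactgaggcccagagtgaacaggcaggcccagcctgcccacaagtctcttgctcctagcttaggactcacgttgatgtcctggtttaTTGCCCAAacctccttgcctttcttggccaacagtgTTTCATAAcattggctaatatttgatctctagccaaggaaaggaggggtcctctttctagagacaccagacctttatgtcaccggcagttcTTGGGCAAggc

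S100a8 and S100a9 are neighbours on chromosome 3, with no annotated gene between them, and are read from opposite strands. Camp, Ngp, Ltf and Mmp8 lie on chromosome 9, and Lcn2 and Mmp9 on chromosome 2. A promoter sequence was found for 7 of the 8 genes, all but Mmp9. TTNNGNAA, searched on both strands, matched in 6 of these 7, and 36.8% of 32851 mouse promoters of the same length hold it. The S100a8 promoter held 1 match, 117 bases before the start. The S100a9 promoter held 2, the nearer of them 130 bases before the start, and the Ngp promoter held 3, the nearest 11 bases before the start. Ltf and Mmp8 had 2 matches each, Lcn2 had 1 and Camp had 0. The PU.1 motif GAGGAAG, searched on both strands, matched in S100a8 (171 bases before the start), Lcn2 and Mmp8, and 10.6% of promoters hold it. No match overlapped another. A match describes letters in this window and is not evidence of binding.

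Calprotectin gave the clearest signal. S100a8 read 10.09, 11.33 and 9.31 in irradiated Balb/c mice, against 5.75, 6.11 and 6.56 in sham Balb/c mice. It read 10.10, 8.29 and 10.24 in irradiated C57BL/6 mice, against 10.49, 9.22 and 8.29 in sham C57BL/6 mice. All 3 irradiated Balb/c arrays lay above all 3 sham Balb/c arrays, while the C57BL/6 groups overlapped. S100a9 read 8.70, 9.38 and 7.58 in irradiated Balb/c mice, against 4.98, 5.73 and 5.39 in sham Balb/c mice. It read 8.64, 7.07 and 9.21 in irradiated C57BL/6 mice, against 8.95, 7.70 and 6.86 in sham C57BL/6 mice. The sham Balb/c arrays were again the lowest group, below each of the other 9 arrays.

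By group mean, S100a8 stood at 10.24 ± 1.02 in irradiated Balb/c, 9.54 ± 1.09 in irradiated C57BL/6, 9.33 ± 1.10 in sham C57BL/6 and 6.14 ± 0.41 in sham Balb/c mice (SD, n = 3 each). S100a9 kept this order, at 8.55 ± 0.91 in irradiated Balb/c, 8.30 ± 1.11 in irradiated C57BL/6, 7.83 ± 1.05 in sham C57BL/6 and 5.36 ± 0.38 in sham Balb/c mice. The first 3 groups differed by less than their spread for both genes, and the sham Balb/c group stood below them. In bulk RNA, fewer cells of a type and less RNA per cell cannot be told apart.

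**Figure D1:**
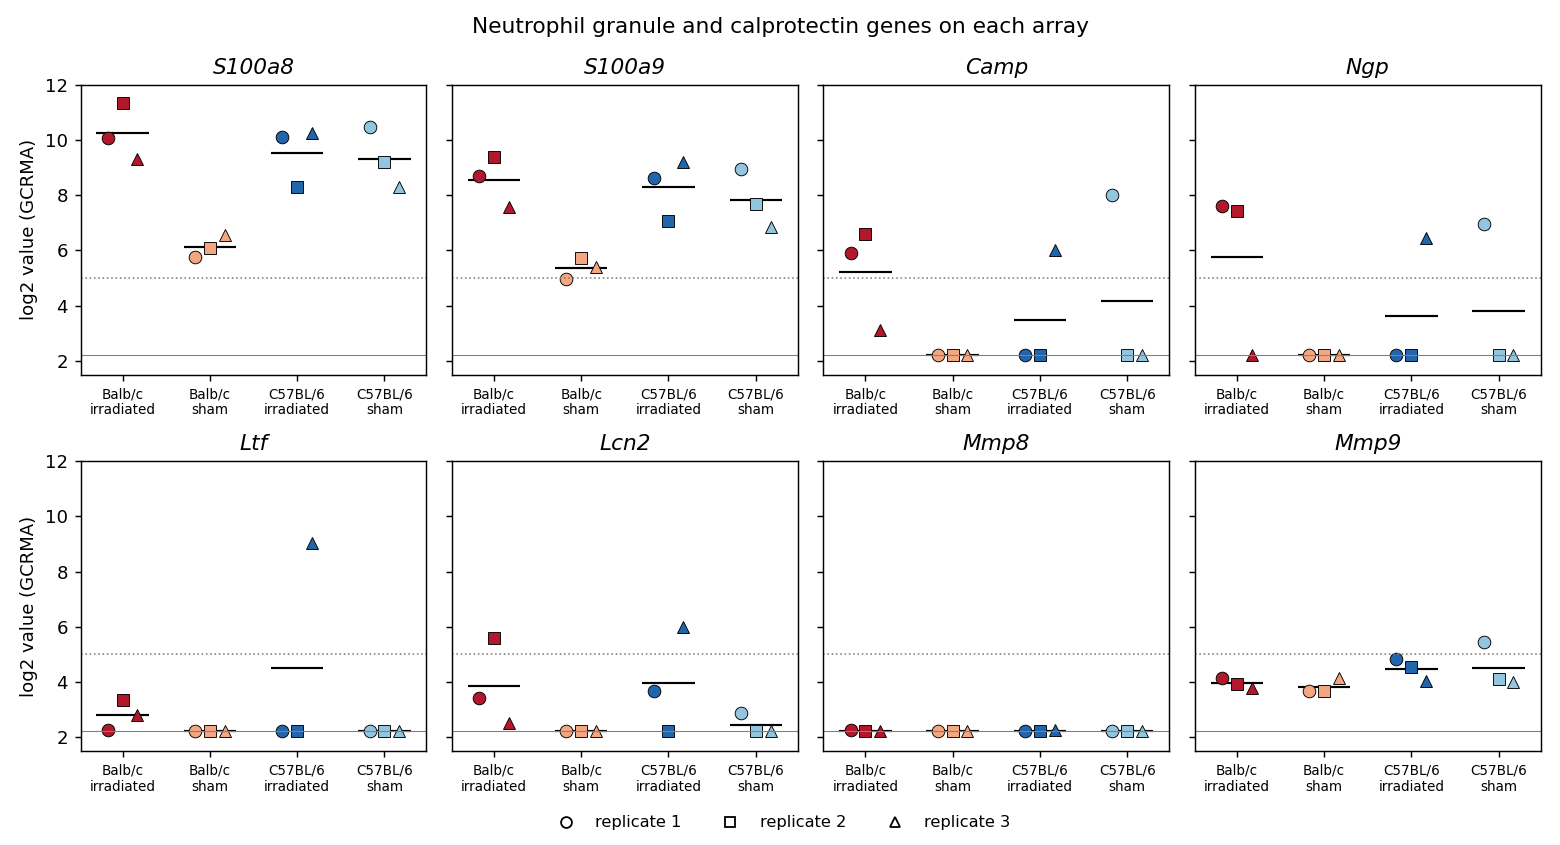
Log2 value (GCRMA) of each of the 8 genes on each array, by group. Points are arrays with the marker giving the replicate number, black bars are group means of 3 arrays, the dotted line is the level of 5 used for testing and the grey line is the bottom of the scale at 2.23. S100a8 and S100a9 were lowest on the 3 sham Balb/c arrays, and Camp and Ngp were above 5 on 4 arrays from 3 groups.

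S100a8 and S100a9 rose with irradiation in Balb/c mice. S100a8 was 4.10 ± 0.67 higher on the log2 scale in irradiated than in sham Balb/c mice (± SE), a 17.2-fold difference with a 95% interval of 2.62 to 5.59 on the log2 scale (limma, adjusted p = 0.00697). By size of rise it came in place 3 among the 9120 genes. S100a9 was 3.19 ± 0.64 higher, a 9.12-fold difference with an interval of 1.77 to 4.61 (limma, adjusted p = 0.0171). Of the 4 tested genes 2 rose and 0 fell, where 3.26% of all tested genes rose and 2.89% fell. The irradiated arrays lay above the sham arrays without overlap for these 2 and for Camp, as was so for 12.8% of all tested genes. The S100a8 call was kept in all 17 alternatives, with adjusted p between 0.00351 and 0.0408. The S100a9 call was lost without sham Balb/c replicate 1 (adjusted p = 0.0681), sham Balb/c replicate 2 (0.0502) or irradiated Balb/c replicate 2 (0.0617), and when dim probe sets were kept (0.0805).

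In C57BL/6 mice neither calprotectin gene passed the test. The log2 difference between irradiated and sham mice was 0.21 ± 0.67 for S100a8 (interval -1.27 to 1.70, limma adjusted p = 0.881) and 0.47 ± 0.64 for S100a9 (-0.95 to 1.89, adjusted p = 0.703). Of the 4 tested genes 0 were called by limma in either direction, and 0 had an unadjusted p under 0.05, where 3.67% of all tested genes were called. These intervals leave room for changes of more than 1 log2 unit for either gene, and the S100a8 difference took values from -0.31 to 0.84 when single arrays were left out.

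The effect in Balb/c mice was not shown to differ from that in C57BL/6 mice after adjustment over all genes. The difference of the 2 effects was 3.89 ± 0.95 log2 units for S100a8, with an unadjusted p of 0.00188 and a limma adjusted p of 0.323. Ordered by signed value, from the most positive down, S100a8 came in place 1 of the 9120 tested genes. For S100a9 it was 2.72 ± 0.91 (unadjusted p = 0.0128, adjusted p = 0.558). Of the 4 tested genes 0 were called and 2 had an unadjusted p under 0.05, where 0.0768% of all tested genes, 7 in number, were called. The residual SD between replicates was 0.95 for S100a8 and 0.91 for S100a9, against a median of 0.22 over all tested genes. It was larger for S100a8 than for 98.3% of them.

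The sham groups of the strains also differed. S100a8 was lower in sham Balb/c than in sham C57BL/6 mice, with a log2 difference of -3.19 ± 0.67 (9.15-fold lower, interval -4.68 to -1.71, limma adjusted p = 0.0107). S100a9 was lower as well, with a difference of -2.47 ± 0.64 (5.54-fold lower, interval -3.89 to -1.05, limma adjusted p = 0.0330). Of the 4 tested genes 2 were lower in Balb/c, where 5.24% of all tested genes were lower. The groups did not overlap for these 2 genes, as was so for 12.3% of all tested genes in this direction. The S100a8 call was lost only when dim probe sets were kept (adjusted p = 0.0596). The S100a9 call was lost in that case (0.136) and without sham C57BL/6 replicate 1 (0.106) or 2 (0.0722) or sham Balb/c replicate 1 (0.116), 2 (0.0634) or 3 (0.0855). The sham Balb/c arrays serve both this comparison and the irradiation effect in Balb/c mice, so the pair of results is not independent.

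Between the irradiated strains neither calprotectin gene passed the test. The log2 difference of irradiated Balb/c over irradiated C57BL/6 mice was 0.70 ± 0.67 for S100a8 (interval -0.79 to 2.19, limma adjusted p = 0.603) and 0.25 ± 0.64 for S100a9 (-1.17 to 1.67, adjusted p = 0.864). Of the 4 tested genes 0 were called by limma and 0 had an unadjusted p under 0.05, where 8.97% of all tested genes were called.

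**Figure D2:**
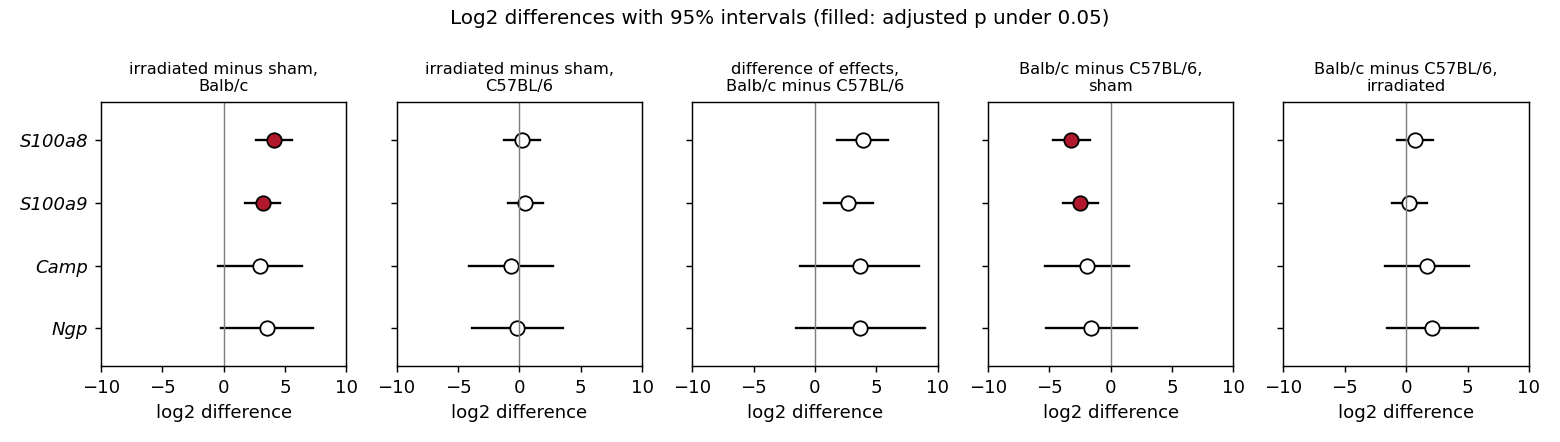
Log2 difference of the 4 tested genes in each of the 5 comparisons, with bars for the 95% interval from limma and filled points for an adjusted p under 0.05. S100a8 and S100a9 were called higher in irradiated than sham Balb/c mice and lower in sham Balb/c than sham C57BL/6 mice, and the intervals of Camp and Ngp included 0 throughout.

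Camp and Ngp were at the bottom of the scale on most arrays and high on a few. Camp encodes cathelicidin, an antimicrobial peptide of the specific granules. It read 5.91, 6.60 and 3.12 in irradiated Balb/c mice, against 2.23 on all 3 sham Balb/c arrays. It read 2.23, 2.23 and 6.02 in irradiated C57BL/6 mice, against 8.0, 2.23 and 2.23 in sham C57BL/6 mice. The highest Camp value of the series thus came from a sham mouse.

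Ngp encodes neutrophilic granule protein, a granule protein of the cystatin family. It read 7.63, 7.43 and 2.23 in irradiated Balb/c mice, against 2.23 on all 3 sham Balb/c arrays. It read 2.23, 2.23 and 6.45 in irradiated C57BL/6 mice, against 6.97, 2.23 and 2.23 in sham C57BL/6 mice. The same 4 arrays were above 5 for Camp and for Ngp: irradiated Balb/c replicates 1 and 2, irradiated C57BL/6 replicate 3 and sham C57BL/6 replicate 1.

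Neither gene passed the test in any comparison. In irradiated against sham Balb/c mice the log2 difference was 2.99 ± 1.55 for Camp (interval -0.43 to 6.40, limma adjusted p = 0.286) and 3.54 ± 1.68 for Ngp (-0.18 to 7.25, adjusted p = 0.243). In irradiated against sham C57BL/6 mice it was -0.66 ± 1.55 for Camp (adjusted p = 0.835) and -0.17 ± 1.68 for Ngp (adjusted p = 0.961). Leaving out single arrays moved that difference between -1.93 and 1.26 for Camp and between -1.58 and 1.41 for Ngp. Between sham Balb/c and sham C57BL/6 mice it was -1.93 ± 1.55 for Camp (adjusted p = 0.526) and -1.58 ± 1.68 for Ngp (adjusted p = 0.652), and without sham C57BL/6 replicate 1 both were 0.00. Between the irradiated groups, Balb/c over C57BL/6, it was 1.72 ± 1.55 for Camp (adjusted p = 0.573) and 2.13 ± 1.68 for Ngp (adjusted p = 0.515). The difference of the 2 irradiation effects was 3.65 ± 2.19 for Camp (adjusted p = 0.690) and 3.71 ± 2.38 for Ngp (adjusted p = 0.704). The residual SD was 2.20 for Camp and 2.39 for Ngp, larger than for 99.8% and 99.9% of tested genes.

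Ltf encodes lactoferrin, the iron-binding protein of specific granules. Ltf read 2.27, 3.35 and 2.81 in irradiated Balb/c mice, against 2.23 on every sham Balb/c array. It read 2.23, 2.23 and 9.04 in irradiated C57BL/6 mice, against 2.23 on every sham C57BL/6 array. A single array, irradiated C57BL/6 replicate 3, held the only Ltf value above 5.

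Lcn2 encodes lipocalin 2, which withholds iron from bacteria by binding their siderophores. Lcn2 read 3.44, 5.60 and 2.51 in irradiated Balb/c mice, against 2.23 on every sham Balb/c array. It read 3.66, 2.23 and 5.98 in irradiated C57BL/6 mice, against 2.86, 2.23 and 2.23 in sham C57BL/6 mice. Ltf and Lcn2 were thus above sham on all 3 irradiated Balb/c arrays, at levels that were mostly close to the bottom of the scale.

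Mmp8 encodes neutrophil collagenase. Mmp8 read 2.25, 2.23 and 2.23 in irradiated Balb/c mice, against 2.23 on every sham Balb/c array, and 2.23, 2.23 and 2.27 in irradiated C57BL/6 mice, against 2.23 on every sham C57BL/6 array. It was thus at or next to the bottom on every array. Mmp9 encodes gelatinase B, a protease of the gelatinase granules that macrophages also make. Mmp9 read 4.15, 3.92 and 3.79 in irradiated Balb/c mice, against 3.68, 3.69 and 4.14 in sham Balb/c mice. It read 4.85, 4.56 and 4.02 in irradiated C57BL/6 mice, against 5.44, 4.12 and 3.98 in sham C57BL/6 mice. The Mmp9 groups overlapped within each strain. Its second probe set stood above the bottom only on sham C57BL/6 replicate 1, at 2.54.

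Single arrays carried much of the signal of these genes. Irradiated C57BL/6 replicate 3 was the highest of its group for 7 of the 8 genes, all but Mmp9, and 6 of the 8 were above 5 on it. The 7 include Mmp8, which at 2.27 was next to the bottom. Sham C57BL/6 replicate 1 was the highest of its group for 6, with 5 above 5. Irradiated Balb/c replicate 2 was the highest of its group for 5, with 5 above 5. Irradiated Balb/c replicate 1 was the highest for the other 3, with 4 above 5. These 3 were Ngp, Mmp8 at 2.25, next to the bottom, and Mmp9 at 4.15. In sham Balb/c mice 5 of the 8 genes were at the bottom on every array.

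The genes fell into pairs across the 12 arrays, given here as a description, since all genes of an array share its RNA and amplification. S100a8 and S100a9 had a Pearson r of 0.98 and a Spearman rho of 0.97, with an r of 0.98 without the 2 arrays farthest from the median and of 0.96 after group means were removed. S100a8 exceeded S100a9 on every array, by 0.38 to 1.95 log2 units, but levels of different probe sets are not comparable. Camp and Ngp had an r of 0.96 and a rho of 0.87, with 0.97 without 2 arrays and 0.95 after group means were removed. These values mainly describe the split between the 4 arrays above 5 and the others at or near the bottom. The 2 arrays left out were among these 4, so this r does not test the split. Among the 4, Camp was highest on sham C57BL/6 replicate 1 (8.0) and Ngp on irradiated Balb/c replicate 1 (7.63). S100a9 was the closest of the 9120 tested genes to S100a8, and Ngp was the closest to Camp. Across the pairs likeness was looser, with an r of 0.71 between S100a8 and Camp and of 0.69 between S100a8 and Ngp. Camp came in place 133 among the genes most like S100a8. After group means were removed, r with Camp and Ngp was 0.76 and 0.73 for S100a8 and 0.82 and 0.82 for S100a9. Lcn2, mostly near the bottom, had a rho of 0.85 with S100a8 and with S100a9. Next to S100a9, the genes most like S100a8 were Utrn, which encodes utrophin (r = 0.90), and Lpgat1, an acyltransferase gene (r = 0.89). The same genes followed for S100a9 at 0.88 each. After group means were removed, Utrn and Lpgat1 fell to 0.67 and 0.68 with S100a8 and to 0.53 and 0.68 with S100a9. Next to Ngp, Camp was most like Sco1 (r = 0.82) and Uhrf1bp1l (0.80). Without 2 arrays these were 0.63 and 0.65, and after group means were removed 0.88 and 0.79. Next to Camp, Ngp was most like Dmac2l (0.86) and Zfp202 (0.79).

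**Figure D3:**
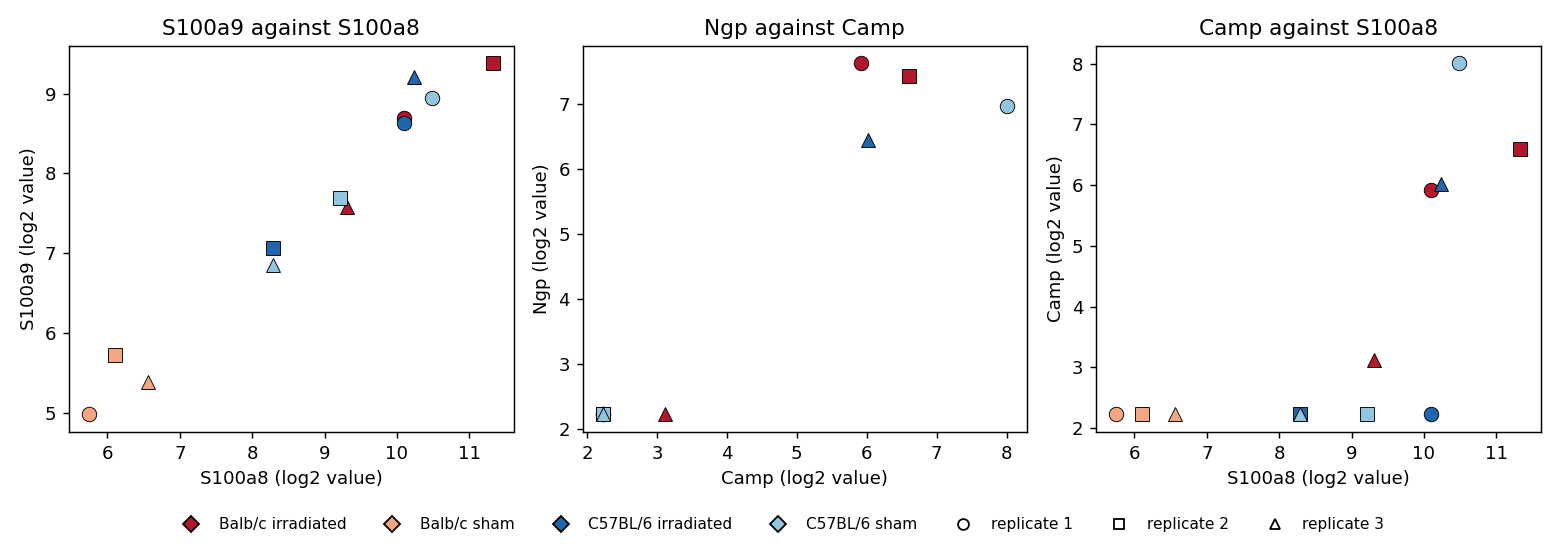
Log2 values of S100a9 against S100a8, Ngp against Camp and Camp against S100a8 on the 12 arrays, coloured by group with the marker giving the replicate number. Calprotectin genes ran along 1 line (r = 0.98), whereas Camp and Ngp split into 4 arrays above 5 and the others at or near the bottom, where several points cover each other.

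Most of the neutrophil defining markers on the array gave no signal above the bottom, and whether neutrophils were present was not tested. Of 5 such markers, Mpo, Elane, Cxcr2 and Itgb2l were at the bottom on all 12 arrays. Mpo (myeloperoxidase) and Elane (neutrophil elastase) belong to the azurophil granules, which are made first as neutrophils mature. Cxcr2 is a chemokine receptor gene and Itgb2l an integrin gene. The fifth, Csf3r, the receptor for granulocyte colony-stimulating factor, which microglia also express, read 9.55 to 10.10 in irradiated Balb/c mice, against 10.25 to 10.50 in sham Balb/c mice, and was not called (log2 difference -0.56 ± 0.16, limma adjusted p = 0.0600). The summed level of these markers, on a log2 scale, came almost wholly from Csf3r, since the other 4 were at the bottom throughout. This sum ran from 9.59 to 10.12 in irradiated and from 10.27 to 10.51 in sham Balb/c mice. In C57BL/6 mice it ran from 9.82 to 10.06 in irradiated and from 10.10 to 10.41 in sham mice. Ly6g, Retnlg and Cebpe were not analysed here. Of 11 neutrophil surface receptor genes on the array 2 were tested, Csf3r and Fpr2. Fpr2, a formyl peptide receptor that also binds cathelicidin, was higher by 2.01 ± 0.50 in irradiated Balb/c mice (limma adjusted p = 0.0395), a call lost without any 1 of the sham arrays or without irradiated replicate 1 or 2. None of the 6 genes on the array that were listed as azurophil granule genes was above 5 on any array. Of these, 4 were at the bottom throughout. The list also holds Nkg7, which was listed as a T and NK cell marker as well.

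Of 16 genes on the array that were listed as other specific and gelatinase granule genes, 6 were tested, among them the receptor gene Ltbr. In Balb/c mice 1 of the 6 rose with irradiation, and in C57BL/6 mice 2 rose, where 3.26% of all tested genes rose in Balb/c and 2.21% in C57BL/6 mice. Cybb, the catalytic subunit of the phagocyte NADPH oxidase, was higher by 1.41 ± 0.35 in irradiated Balb/c (limma adjusted p = 0.0408) and by 2.11 ± 0.35 in irradiated C57BL/6 mice (adjusted p = 0.0101). Its Balb/c call was lost whichever of the 6 Balb/c arrays was left out. Lyz2, the lysozyme of myeloid cells, was higher by 1.02 ± 0.21 in irradiated C57BL/6 mice (adjusted p = 0.0293), a call lost without sham replicate 1 or 2 or irradiated replicate 2 or 3. Chil3, a chitinase-like protein of myeloid cells, read 5.05, 7.22 and 2.56 in irradiated Balb/c mice, against 3.09, 2.59 and 2.60 in sham Balb/c mice. It read 4.64, 2.30 and 7.73 in irradiated C57BL/6 mice, against 8.0, 3.71 and 6.94 in sham C57BL/6 mice, and was not called. Its highest array in each of these groups except sham Balb/c was the one that was highest for S100a8. Olfm4, also tested, was highest on other arrays than S100a8 in irradiated Balb/c (replicate 1, 6.85) and sham C57BL/6 mice (replicate 3, 6.15). In the remaining groups Olfm4 and S100a8 were highest on the same array.

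Of 7 tested S100 genes beside S100a8 and S100a9, 1 rose in Balb/c and 3 in C57BL/6 mice after irradiation, beside 3.26% and 2.21% of all tested genes. S100a6 was higher by 1.49 ± 0.29 in irradiated Balb/c (limma adjusted p = 0.0142) and by 1.46 ± 0.29 in irradiated C57BL/6 mice (adjusted p = 0.0237). The Balb/c call was lost without sham replicate 2 or irradiated replicate 3, and the C57BL/6 call without sham replicate 1 or 2 or irradiated replicate 1 or 3. S100a4 (1.15 ± 0.24) and S100a10 (1.02 ± 0.23) were the others called in C57BL/6 mice. Their calls were lost without sham replicate 1 or 2 or irradiated replicate 1, for S100a4 also without irradiated replicate 2 and for S100a10 also without irradiated replicate 3. None of 8 tested genes for calprotectin receptors and their signalling was called after irradiation in either strain, although 3 had an unadjusted p under 0.05 in each. Tlr4, the main calprotectin receptor, differed by -0.07 ± 0.15 in Balb/c (adjusted p = 0.834) and by -0.16 ± 0.15 in C57BL/6 mice (adjusted p = 0.561).

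Among 5 tested granulocyte transcription factor genes, Cebpa, which encodes C/EBP alpha, was the only one called after irradiation, where 2.89% of all tested genes fell in Balb/c and 1.46% in C57BL/6 mice. It fell by 1.47 ± 0.22 in irradiated Balb/c (limma adjusted p = 0.00393) and by 1.09 ± 0.22 in irradiated C57BL/6 mice (adjusted p = 0.0239). The C57BL/6 call was lost without any 1 of the sham arrays or without irradiated replicate 3.

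Of 7 tested genes for proteases related to Mmp8 and Mmp9 and for their inhibitors, 3 rose in Balb/c and 2 in C57BL/6 mice, against 3.26% and 2.21% of all tested genes. Mmp2, gelatinase A, was higher by 1.13 ± 0.18 in irradiated Balb/c (limma adjusted p = 0.00686) and by 1.90 ± 0.18 in irradiated C57BL/6 mice (adjusted p = 0.000849). Timp3, a matrix-bound inhibitor of these proteases, was higher by 1.58 ± 0.17 in irradiated Balb/c (adjusted p = 0.00107) and by 1.45 ± 0.17 in irradiated C57BL/6 mice (adjusted p = 0.00187). Timp4 was the other gene that rose in Balb/c mice, by 1.23 ± 0.24 (adjusted p = 0.0160), a call lost without sham replicate 2 or irradiated replicate 3. Timp1, the secreted inhibitor that pairs with Mmp9, was at the bottom on all 12 arrays.

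Of 6 tested genes for cytokines that draw or activate neutrophils, 1 rose in each strain, where 3.26% of all tested genes rose in Balb/c and 2.21% in C57BL/6 mice. Il6, interleukin 6, was higher by 2.97 ± 0.21 in irradiated than in sham Balb/c mice, and was the only gene of these lists called for the difference of effects (2.88 ± 0.30, limma adjusted p = 0.00609). That call was lost when dim probe sets were kept and without both irradiated C57BL/6 replicate 3 and irradiated Balb/c replicate 2 (adjusted p up to 0.0543). Like S100a8, it was lowest on the 3 sham Balb/c arrays, at 6.37, 6.74 and 6.44, against 8.87, 9.38 and 9.81 on the sham C57BL/6 arrays. Cxcl2, a neutrophil-attracting chemokine, was higher by 1.91 ± 0.47 in irradiated C57BL/6 mice (adjusted p = 0.0499), a call lost without any 1 of the irradiated arrays or sham replicate 1 or 2, and by 1.35 ± 0.47 in Balb/c mice, which was not called (adjusted p = 0.114). Cxcl1, another such chemokine, was not called in Balb/c (0.81 ± 1.21, adjusted p = 0.743) or C57BL/6 mice (-0.0017 ± 1.21, adjusted p = 0.999). Cxcl3, Cxcl5 and Ppbp stood above 5 only on irradiated C57BL/6 replicate 3, at 8.84, 8.22 and 7.95, the array that held the only high Ltf value.

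**Figure D4:**
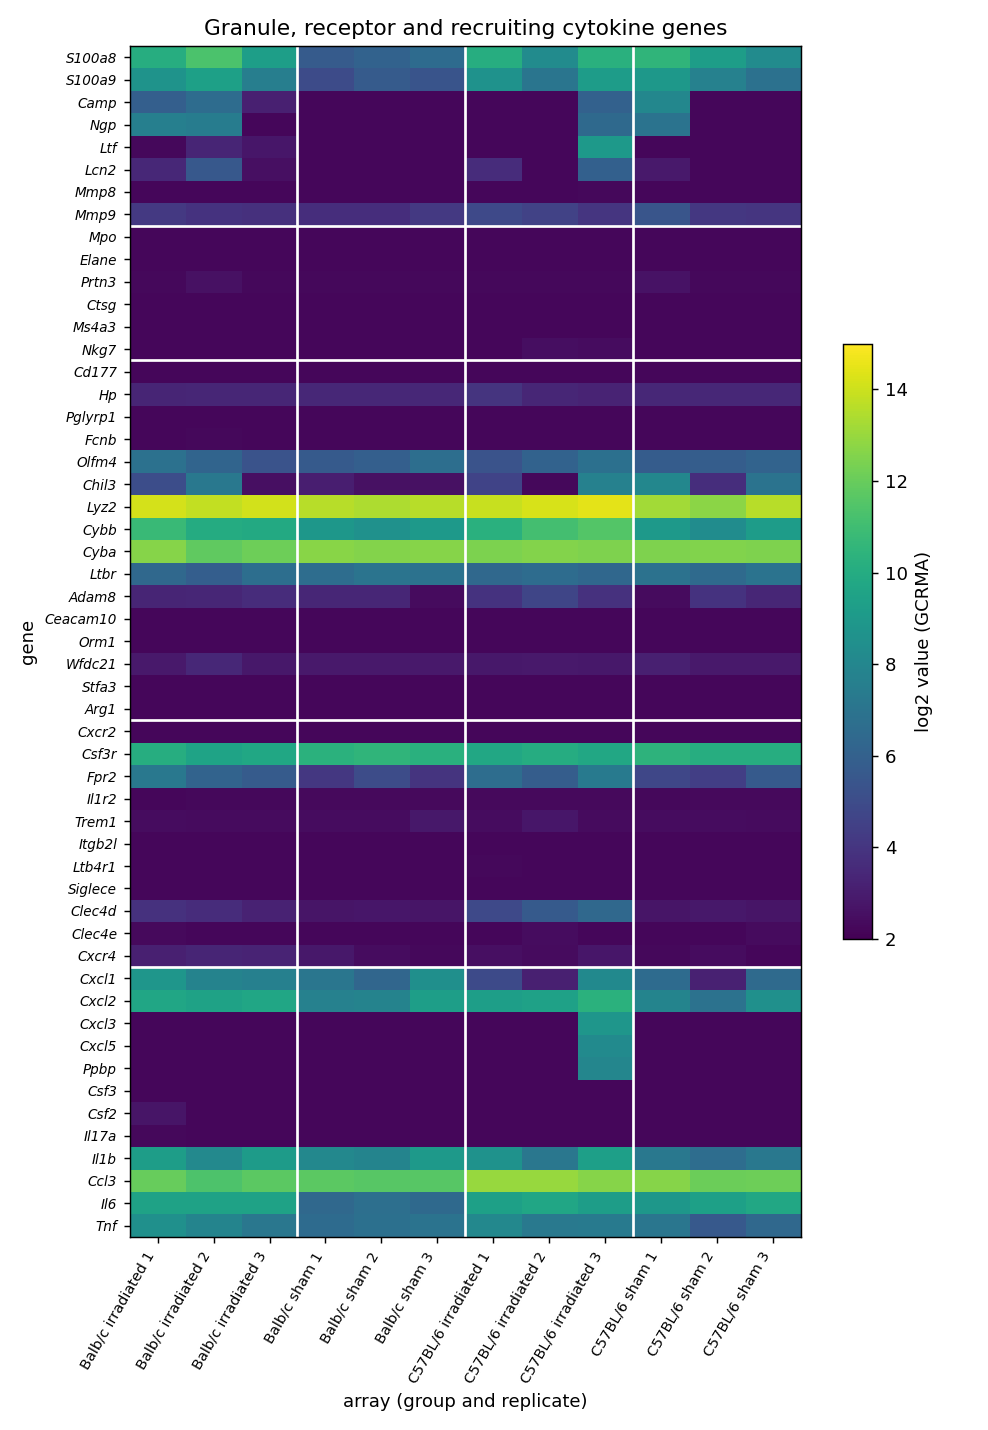
Log2 values (GCRMA, colour scale) of the 8 genes, then of azurophil granule genes, other granule genes, neutrophil receptors and recruiting cytokines, down the page, on each of the 12 arrays, with white lines between lists and groups. Genes listed as azurophil stayed at the dark end on all arrays, and Ltf, Cxcl3, Cxcl5 and Ppbp were bright on irradiated C57BL/6 replicate 3 alone.

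The sorted cells carried microglial RNA on every array, with all 10 microglial markers above 5 throughout and none called after irradiation in either strain. P2ry12, a microglial purinergic receptor, differed by -0.11 ± 0.14 in Balb/c (limma adjusted p = 0.681) and by 0.02 ± 0.14 in C57BL/6 mice (adjusted p = 0.942). Cdkn1a, a cell cycle inhibitor induced by DNA damage, was higher by 3.12 ± 0.21 in irradiated Balb/c and by 4.35 ± 0.21 in irradiated C57BL/6 mice (limma adjusted p = 4.55e-05 and 3.9e-06).

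Markers of other cells also differed between irradiated and sham mice in Balb/c and, for some, in C57BL/6 mice. Of 8 tested monocyte markers 4 rose in each strain (Cd44, F13a1, Fn1 and Ms4a4c in Balb/c, and Ccr2, Cd44, Fn1 and Ms4a4c in C57BL/6 mice), beside 3.26% and 2.21% of all tested genes. The C57BL/6 calls and, in Balb/c mice, that of Ms4a4c were kept whichever array was left out, and the calls of Cd44, F13a1 and Fn1 in Balb/c mice were lost without 6, 4 and 3 of the 6 Balb/c arrays when each was left out. In C57BL/6 mice the calls of Ccr2, Fn1 and Ms4a4c were lost with the compared groups alone, those of Ccr2 and Ms4a4c without the 2 arrays named for Il6, and that of Ccr2 when dim probe sets were kept. The summed log2 level of the monocyte markers ran from 12.03 to 12.29 in irradiated and from 10.89 to 11.09 in sham Balb/c mice, and from 12.36 to 12.60 in irradiated and from 10.66 to 11.63 in sham C57BL/6 mice. Ccr2, a receptor that marks inflammatory monocytes, was higher by 1.17 ± 0.42 in Balb/c (not called, adjusted p = 0.124) and by 2.52 ± 0.42 in C57BL/6 mice (limma adjusted p = 0.0101). Of 9 T and NK cell markers on the array 8 were never above 5. Gzma, granzyme A, was the only one tested, and it read 8.17, 5.61 and 2.35 in irradiated Balb/c mice, against 2.42, 2.32 and 2.55 in sham Balb/c mice. These groups overlapped, and Gzma was not called (2.95 ± 1.09, adjusted p = 0.137). In C57BL/6 mice its irradiated arrays lay above its sham arrays without overlap, as for 11.4% of all tested genes (log2 difference 1.97, not called). Its sham Balb/c arrays lay below its sham C57BL/6 arrays without overlap, as for 12.3% of all tested genes (-3.61, not called). Of 8 astrocyte markers 4 (Aqp4, Gfap, Gja1 and Sox9) rose in Balb/c mice, where 3.26% of all tested genes rose, with a summed level of 14.59 to 15.18 in irradiated and 13.70 to 14.14 in sham mice. The calls of Aqp4, Gfap and Gja1 were lost without 4 and that of Sox9 without 5 of the 6 Balb/c arrays when each was left out. In C57BL/6 mice 0 of the 8 were called by limma (6 had an unadjusted p under 0.05), with a summed level of 14.26 to 14.80 in irradiated and 13.51 to 14.07 in sham mice. Of 8 border-associated macrophage markers 2 were called higher in irradiated Balb/c mice, where 3.26% of all tested genes rose. These were Mrc1 and F13a1, which was also listed as a monocyte marker. The 8 summed to 13.63 or more in irradiated and to 13.22 or less in sham Balb/c mice. The Mrc1 call was lost whichever of the 6 Balb/c arrays was left out. In C57BL/6 mice 1 (Clec4n) was called higher, beside 2.21% of all tested genes. That call was lost without 5 of the 6 C57BL/6 arrays when each was left out. An unadjusted p under 0.05 was found for 7 in C57BL/6 and 6 in Balb/c mice. The C57BL/6 sums were 14.33 to 14.65 in irradiated and 13.31 to 14.44 in sham mice. Of 5 tested endothelial markers 1 (Slco1a4) was called higher in irradiated Balb/c mice, beside 3.26% of all tested genes. The endothelial markers summed to 11.82 to 12.30 in irradiated and 10.91 to 11.49 in sham Balb/c mice. The Slco1a4 call was lost without 4 of these arrays when each was left out. In C57BL/6 mice 0 of the 5 were called by limma, with sums of 11.31 to 12.28 in irradiated and 10.91 to 11.41 in sham mice. Neither of 2 tested B cell markers nor the 1 tested mast cell and basophil marker was called after irradiation, and no erythroid marker reached the level needed for testing. The part of these markers in the S100a8 and S100a9 results was not tested. The array quality measures moved too: the log2 difference between 3′ and 5′ probe sets of Actb and Gapdh was 3.70, 4.82 and 4.21 in irradiated Balb/c mice, against 3.72, 3.54 and 3.81 in sham Balb/c mice. Irradiated replicate 1 lay within the sham range. The 18S control level was 11.60, 10.48 and 11.47 in irradiated Balb/c mice, against 11.93, 12.32 and 12.31 in sham Balb/c mice, without overlap. It was 11.55, 11.77 and 11.75 in irradiated C57BL/6 mice, against 12.05, 12.13 and 12.31 in sham C57BL/6 mice, also without overlap. The part of these measures in the results was not tested. Without the array at 4.82 in the 3′ to 5′ measure, S100a8 was still called (log2 difference 3.56, adjusted p = 0.0285) and S100a9 was not (2.78, adjusted p = 0.0617).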

How the data were processed

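The deposited table holds log2 values for 45101 probe sets on 12 arrays, normalised by the authors with GCRMA, per the submitters' processing notes, whose version is not given in the sources used here. Scanner files and detection calls were not used. Probe sets with 1 gene symbol were used, and each gene was its probe set with the highest mean. A gene was tested if its log2 value passed 5 on 3 or more arrays. All 4 groups were fitted in limma 3.58.1 (R 4.3.3, lmFit and eBayes) with a mean for each group, which leaves 8 residual degrees of freedom. Benjamini-Hochberg adjustment ran over the 9120 tested genes in each of 5 comparisons, and genes below 0.05 were called. The labels give RNA per animal, and the p-values measure the spread between these animals. The procedure was tested on simulated data.

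The 8 genes and all gene lists were chosen with earlier results of these data known, so they are no independent support. Named were the 8 genes, up to 4 called genes of each list, genes set by name and the 3 genes most like each tested gene. Chil3, Gzma, Cxcl3, Cxcl5, Ppbp and Itgb2l were named outside these rules. Replicate numbers are shared by all groups. Same-numbered irradiated Balb/c and C57BL/6 arrays deviated together (r = 0.22, 0.45 and 0.32 over genes), as a hint from the data, since the labels state no batch. In the other group pairs at least 1 of the 3 correlations was at or below 0.1, although that of irradiated and sham Balb/c replicate 3 was 0.28 and that of irradiated and sham C57BL/6 replicate 2 was 0.11. Alternatives covered the filter, a floor, normalisation, probe set choice, eBayes settings, array weights, the compared groups alone, a replicate block and each array left out. Chosen after seeing the data were a fit without irradiated C57BL/6 replicate 3 and irradiated Balb/c replicate 2, and a replicate block on the irradiated groups alone. Ly6g, Cebpe and Hbb-bs, which were to be named, were not analysed here.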

Additional observations from a re-analysis of the deposited data

How the results depend on the processing

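The number of arrays, 3 per group, and the many values at the bottom of the scale limit the precision. Of the counts of called genes among the 8, those for C57BL/6 irradiation, for the difference of effects and for the irradiated strains stayed at 0 in each alternative tried. In irradiated against sham Balb/c mice the count of 2 fell to 1 with no filter on dim probe sets and to 1 without both irradiated C57BL/6 replicate 3 and irradiated Balb/c replicate 2, where 2 of the 8 genes were still tested. It ran from 1 to 2 with single arrays left out. In sham Balb/c against sham C57BL/6 mice the count of 2 fell to 0 with no filter, where 18193 genes share the adjustment, and ran from 1 to 2 with single arrays left out. S100a9 accounted for each lost call in the Balb/c irradiation comparison.

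For the 8 genes signs turned only for differences that were not called. In irradiated against sham C57BL/6 mice Ngp was 0.13 with array weights and S100a8 was -0.14 without those 2 arrays. With single arrays left out, S100a8 ran from -0.31 to 0.84, S100a9 from -0.017 to 1.09, Camp from -1.93 to 1.26 and Ngp from -1.58 to 1.41. In irradiated Balb/c against irradiated C57BL/6 mice S100a9 ran from -0.37 to 0.74. The cause was not tested.

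A replicate block changed no call of the 8 genes, and S100a8 in Balb/c had an adjusted p of 0.0139 with it. In the irradiated groups alone the block gave 498 called genes, against 533 without it and 818 in the fit of all 4 groups. Counts over all genes moved more than 1.5 times in some settings. In Balb/c irradiation 561 became 283 with no filter, 364 with the compared groups alone and 350 without both arrays named above, and 211 to 487 with single arrays left out. In C57BL/6 irradiation 335 became 155, 96, 97 and 109 to 348 in the same settings. For the difference of effects 7 became 2 with no filter, 2 without both arrays and 2 to 8 with single arrays left out. For the irradiated strains 818 became 445 without both arrays.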
